A study of Rattus norvegicus with 6 samples.

Results

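The genes described here encode the protein-folding machinery that cells raise under stress. One set belongs to the unfolded protein response of the endoplasmic reticulum (ER) and the other to the heat shock response of the cytosol and mitochondria. The list held 49 gene symbols, 27 for the unfolded protein response and 22 for heat shock, and a member was any probe set whose deposited gene symbol was exactly one of them. The symbols were chosen with earlier results of these data known, though this rule itself used no measured value. It found 60 probe sets of 44 genes among the 31042 probe sets that were not array controls. Of these, 54 probe sets of 43 genes were detected on at least 3 of the 6 arrays and entered the test, 28 of 24 unfolded protein response genes and 26 of 19 heat shock genes, among 20790 probe sets in all. The tissue was the rostral ventrolateral medulla, the brainstem region that drives sympathetic outflow to the heart and vessels. It came from 3 spontaneously hypertensive rats (SHR), bred for high blood pressure, and from 3 rats of the strain that the labels spell Wistar-Kyoko and abbreviate WKY, taken here as the Wistar-Kyoto comparison strain. Both strains were untreated, weighed 250 to 350 g and had 1 Affymetrix rat expression array for each animal; age, sex and blood pressure were not given in the sources used here. In bulk tissue, fewer cells of a type and less RNA per cell cannot be told apart.

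Unfolded proteins in the ER lumen draw the chaperone BiP, encoded by Hspa5, away from membrane sensors. The sensor PERK phosphorylates a translation factor, which slows protein synthesis and favours translation of ATF4. ATF6 moves to the Golgi and is cut there into a transcription factor, and IRE1 splices the Xbp1 transcript so that it encodes another. ATF6 and spliced XBP1 raise ER chaperones, disulfide isomerases and the machinery of ER-associated degradation, while ATF4 raises Ddit3, which encodes CHOP, and Trib3. In the cytosol, heat shock factor 1 (HSF1) is held back by chaperones and, once released by misfolded protein, binds heat shock elements and raises Hsp70, Hsp40, Hsp90 and small heat shock protein genes. The steps of sensor activation, cleavage and splicing act on protein or on RNA processing and are not read by 3′ arrays, so what was compared is the level of the transcripts.

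DNA elements through which these 2 programmes are known to act were found in the promoters of some members. Promoter windows from RefSeq (build GRCr8, 250 bases before to 50 after the annotated start) were matched by symbol for 39 of the 49 members, 22 of the unfolded protein response and 17 of heat shock. The ER stress response element, ERSE, was searched on both strands as CCAAT and CCACG with 9 bases of any kind between them. It stood in 7 of the 22 unfolded protein response promoters, in 0 of the 17 heat shock promoters and in 0.0657% of all 33469 promoter windows. A related element, ERSE-II, searched as ATTGG and CCACG with 1 base of any kind between them, stood in 3 further unfolded protein response promoters, in 0 heat shock promoters and in 0.0508% of all windows. The matched sites are shown because elements of these forms are known to be bound by ATF6, or ATF6 and XBP1, with the factor NF-Y. Capitals mark the fixed letters of each element, and sites are written in the direction of the element.
Hspa5: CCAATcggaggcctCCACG
Hsp90b1, distal site: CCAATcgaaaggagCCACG
Hsp90b1, proximal site: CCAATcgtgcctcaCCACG
Xbp1: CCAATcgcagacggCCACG
Calr: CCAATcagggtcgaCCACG
Canx: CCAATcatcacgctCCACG
Creld2: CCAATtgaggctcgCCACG
Dnajc3: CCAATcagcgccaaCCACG
Dnajb11 and Hyou1, distal site: ATTGGcCCACG
Herpud1 and Hyou1, proximal site: ATTGGgCCACG

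The heat shock element was searched on both strands as GAA, TTC and GAA with 2 bases of any kind between neighbours, 3 alternating repeats of the unit that one subunit of the HSF1 trimer contacts. It stood in 5 of the 17 heat shock promoters (Dnaja1, Hspa8, Hspd1, Hspe1 and Hsph1), in 0 of the 22 unfolded protein response promoters and in 0.798% of all windows. Its sites are written in the same way, with the fixed letters in capitals.
Dnaja1 and Hsph1: GAActTTCcaGAA
Hspa8, distal site: GAAagTTCcaGAA
Hspa8, proximal site: GAAccTTCcaGAA
Hspd1 and Hspe1, one site: GAAccTTCcgGAA
Hspd1 and Hspe1, other site: GAAggTTCtaGAA

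The Hspa5 and Hspe1 promoters are given whole, as one example of each programme, on the strand of the gene and with the matched elements in capitals. The Hspa5 window lies at chr3:38452766-38453065 on the plus strand, and its exact ERSE match ran from base -43 to base -25 counted from the start. Copies that depart from the fixed letters were not searched. The Hspe1 window lies at chr9:64084077-64084376 on the plus strand. Hspd1 is transcribed away from Hspe1 on the other strand, and the 2 windows shared 211 bases and the same overlapping pair of heat shock elements, from base -65 to base -48 counted from the Hspe1 start.
Hspa5 promoter: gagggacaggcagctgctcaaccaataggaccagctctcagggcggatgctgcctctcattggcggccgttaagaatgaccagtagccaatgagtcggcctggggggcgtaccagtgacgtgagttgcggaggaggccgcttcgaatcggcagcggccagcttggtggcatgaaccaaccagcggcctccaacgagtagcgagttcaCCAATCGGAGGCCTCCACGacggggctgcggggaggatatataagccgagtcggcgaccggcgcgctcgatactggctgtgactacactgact
Hspe1 promoter: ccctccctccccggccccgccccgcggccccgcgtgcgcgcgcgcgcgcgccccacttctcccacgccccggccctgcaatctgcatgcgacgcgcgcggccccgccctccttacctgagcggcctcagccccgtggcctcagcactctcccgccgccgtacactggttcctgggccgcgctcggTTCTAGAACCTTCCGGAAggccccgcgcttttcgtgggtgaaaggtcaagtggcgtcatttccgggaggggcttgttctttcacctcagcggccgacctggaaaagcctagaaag
Both ERSE forms contain a CCAAT box on one strand, which 37.5% of all windows hold. A match is a description of these letters and not of a bound site. The unfolded protein response element TGACGTGG was found in the Hyou1 and Bag3 promoters and in 0.595% of all windows. The amino acid response element, searched as TGATGNAAN and known as a site of ATF4, was found in the Herpud1 and Trib3 promoters and in 3.97% of all windows.

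**Figure D1:**
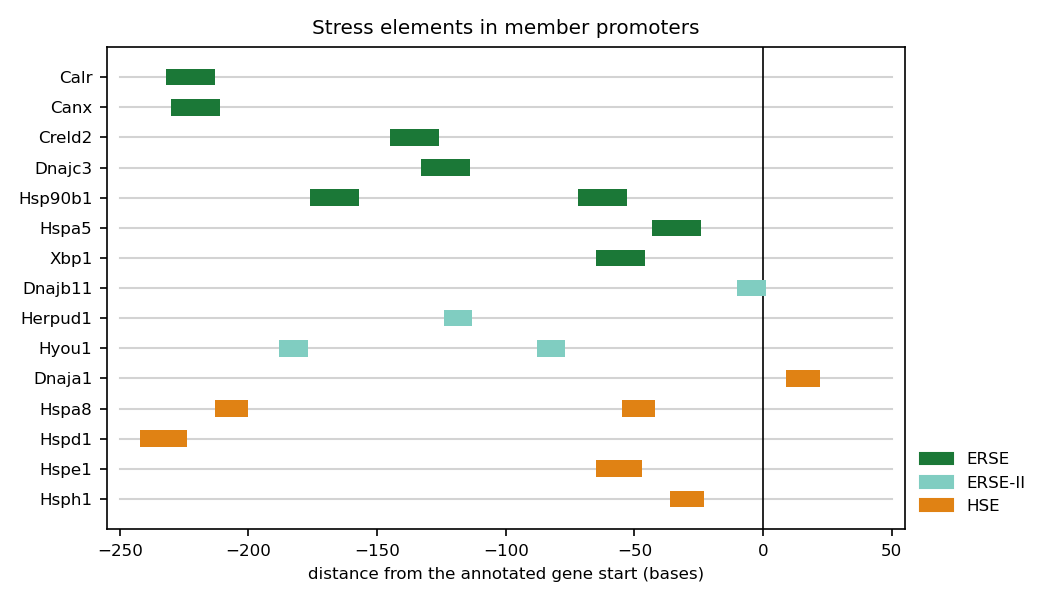
Positions of ERSE, ERSE-II and heat shock element matches in the member promoters that hold one, 1 row a gene, in bases from the annotated start. ERSE and ERSE-II matches lie in the 10 unfolded protein response promoters shown and heat shock element matches in the 5 heat shock promoters shown.

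The arrays were alike in quality, with Present calls for 64.8% to 67.0% of probe sets and log2 medians of 7.43 to 7.47. Values below are deposited log2 signals, in the order of animals 1, 2 and 3 of each strain, and a difference is SHR minus WKY with its standard error (SE). Differences were tested with limma and p-values were adjusted over all 20790 probe sets. Signals of different probe sets are not compared with each other, since probes differ in affinity.

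No member differed between the strains at the adjusted threshold. Limma called 0 of the 54 member probe sets at an adjusted p under 0.05, against 0.924% of all kept probe sets. An unadjusted p under 0.05 was reached by 2 of the 54, or 3.7%, against 9.52% of all kept probe sets, and both were lower in SHR: the ER sensor gene Atf6 and the disulfide isomerase gene Pdia4. By direction, such a p was reached by 4.7% of all kept sets toward lower and 4.81% toward higher values in SHR. All 3 animals of one strain lay beyond all 3 of the other for 2 members, Pdia4 (lower in SHR) and the small heat shock protein gene Hspb6 (higher in SHR), against 15.0% of all kept probe sets (7.76% lower and 7.26% higher in SHR). Differences were above 0 for 27 member probe sets and below 0 for 27. The median difference was -0.016 for the 28 unfolded protein response sets, 13 of them above 0, and 0.013 for the 26 heat shock sets, 14 of them above 0, beside 0.0014 for all kept probe sets.

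**Figure D2:**
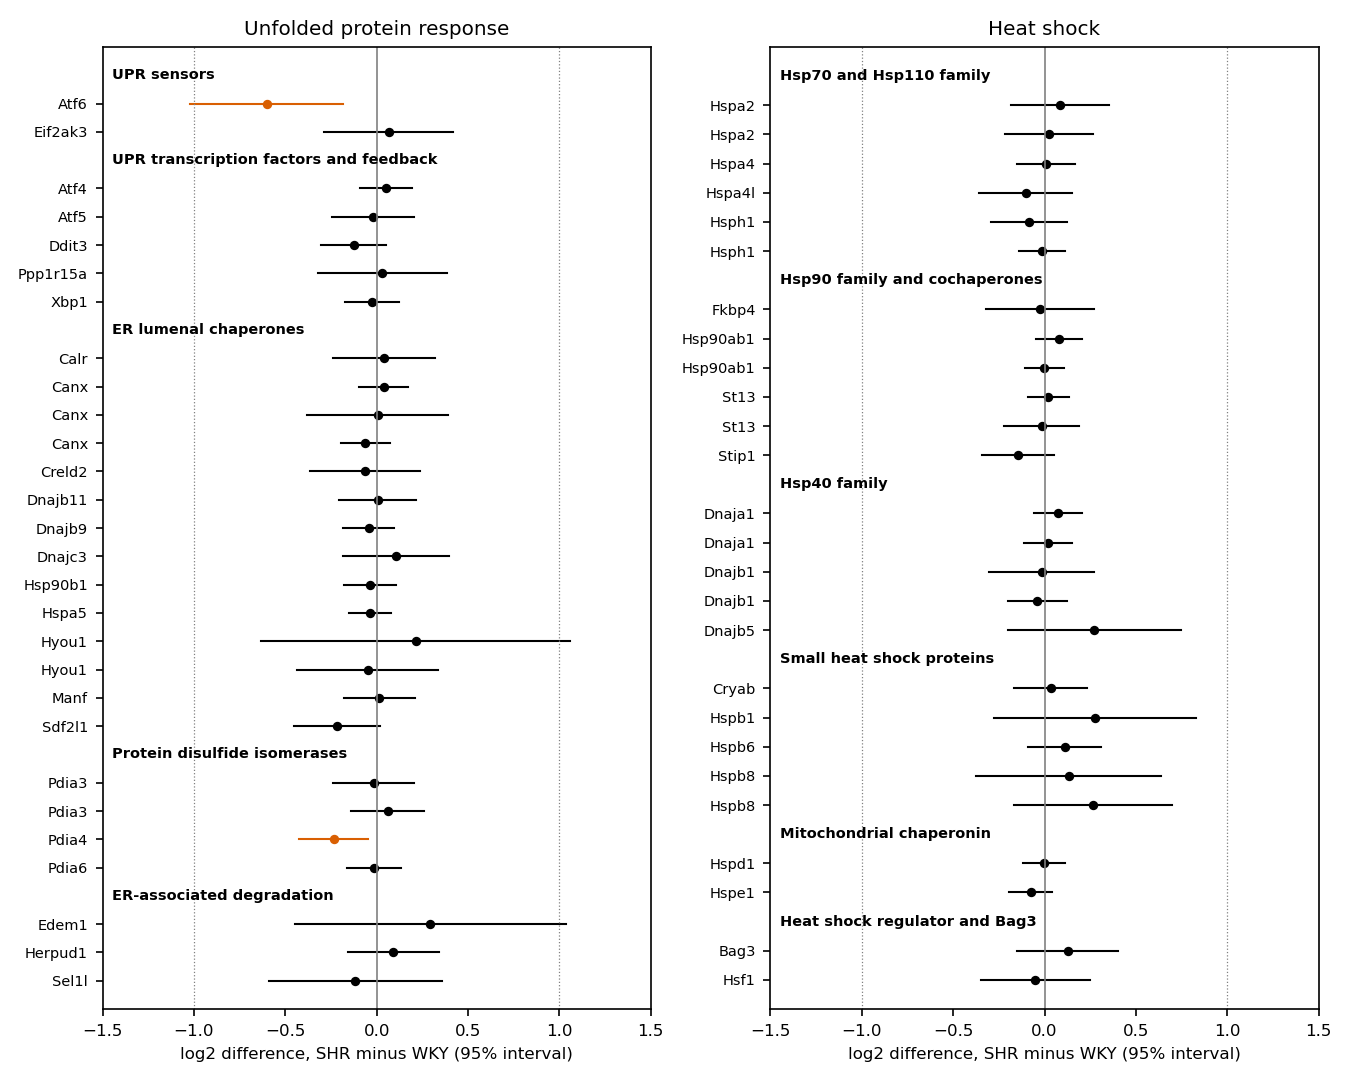
Log2 difference, SHR minus WKY, of each of the 54 member probe sets with its 95% interval from limma, grouped by role. Most points lie near 0, and Atf6 and Pdia4 are the sets whose interval does not reach 0.

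The differences were small and the intervals narrow for most members. The 95% interval lay within 1.5-fold in either direction for 46 of the 54 sets (85.2%), beside 63.0% of all kept probe sets. It lay within 2-fold for 51 sets (94.4%), beside 88.3% of all kept sets, and the sets that missed it belonged to Atf6, Edem1 and Hyou1. The difference was under 0.1 in size for 38 sets (70.4%), beside 44.4% of all kept sets. The median SE was 0.094 for members and 0.15 for all kept sets. This is a description, and the members were not matched to other sets on signal level.

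**Figure D3:**
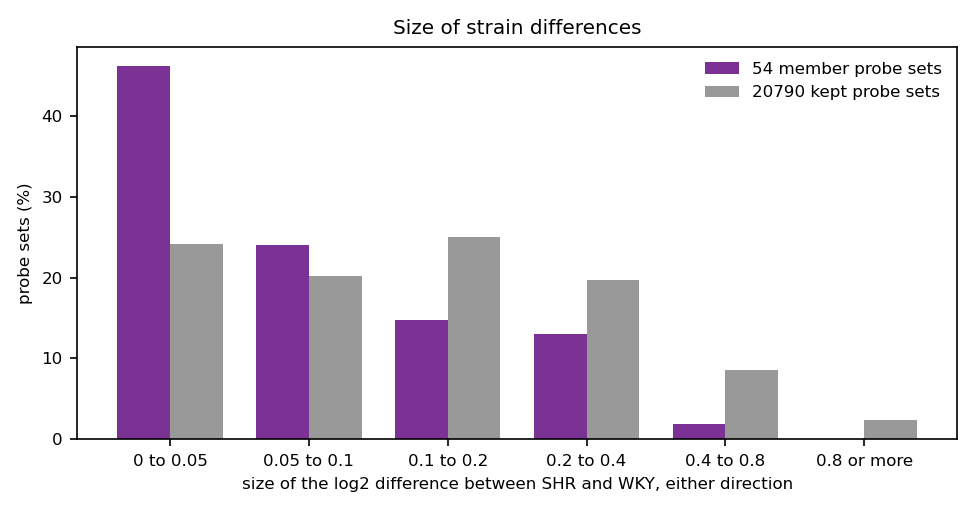
Share of probe sets, in percent, by the size of their log2 difference between SHR and WKY, for the 54 member sets and for all 20790 kept sets. Members are concentrated in the smallest class, under 0.05, which holds 46.3% of them and 24.2% of all kept sets.

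Among the sensors, Atf6 had the largest difference of any member. Its log2 signal was 9.32, 8.72 and 8.51 in SHR, against 9.53, 9.56 and 9.27 in WKY, on a probe set at 93670498 to 93671435 of chromosome 13 (Rnor5.0, minus strand). SHR animals 2 and 3 lay below every WKY animal, while SHR animal 1 lay above WKY animal 3, so the strains overlapped. The difference was -0.60 ± 0.19 (SE), or 1.52-fold lower in SHR, with limma adjusted p = 0.261. Without SHR animal 1 it was -0.84 and was called (adjusted p = 0.0119). Over all alternatives the difference stayed between -0.84 and -0.43 and the adjusted p ranged from 0.0119 to 0.617. A second Atf6 probe set, at 93824489 to 93824712 of the same chromosome, was called Absent on all 6 arrays and was not tested, so no other set measured the gene.

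Eif2ak3, which encodes the sensor PERK, had signals of 8.81, 8.98 and 9.01 in SHR, against 8.88, 8.54 and 9.18 in WKY. The SHR values lay inside the WKY range, and the difference was 0.066 ± 0.16 (SE; limma, adjusted p = 0.939). Ern1, which encodes the sensor IRE1, was not analysed here.

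The transcription factors downstream of the sensors had closely similar signals in the strains. Xbp1, the target of IRE1 splicing and carrier of the ERSE shown above, had 11.39, 11.21 and 11.27 in SHR, against 11.31, 11.31 and 11.32 in WKY. The 3 WKY values spread over 0.014 and lay between the SHR values, and the difference was -0.024 ± 0.067 (SE). Its probe set does not part spliced from unspliced transcripts in these tables. Atf4, the factor of the PERK branch, had 12.19, 12.11 and 12.06 in SHR, against 12.12, 12.12 and 11.97 in WKY. The strains overlapped, with a difference of 0.052 ± 0.064 (SE).

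Targets and feedback genes of the PERK branch did not pass the test. Ddit3, whose product CHOP promotes cell death under lasting ER stress, had 10.22, 10.14 and 10.05 in SHR, against 10.21, 10.27 and 10.31 in WKY. SHR animals 2 and 3 lay below the WKY animals and SHR animal 1 lay just above WKY animal 1. The difference was -0.13 ± 0.081 (SE; limma, adjusted p = 0.692). Atf5, another factor of this branch, differed by -0.021, and Ppp1r15a, whose product GADD34 directs a phosphatase to restore translation, by 0.030. All 3 probe sets of Trib3, a pseudokinase gene induced by ATF4 and CHOP, fell short of the detection filter, with Present calls on at most 1 of 6 arrays, and were not tested.

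Chaperones of the ER lumen, the classic output of ATF6 and XBP1, had nearly equal signals in the strains. Of their 14 kept probe sets of 11 genes, 7 differences were above 0 and 7 below. None had an unadjusted p under 0.05, beside 9.52% of all kept sets. Hspa5, the gene of BiP, had 12.57, 12.53 and 12.52 in SHR, against 12.61, 12.61 and 12.52 in WKY. The whole spread of the 6 animals was under 0.1, and the difference was -0.038 ± 0.052 (SE), with a 95% interval of -0.15 to 0.077. Hsp90b1, which encodes the ER Hsp90 GRP94, had 12.05, 12.22 and 12.23 in SHR, against 12.25, 12.22 and 12.15 in WKY. SHR animal 1 was the lowest of the 6, the others overlapped, and the difference was -0.035 ± 0.064 (SE).

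The lectin chaperone genes Calr and Canx, which fold glycoproteins, were likewise close. Calr differed by 0.041 ± 0.13 (SE), and the 3 Canx sets differed by -0.061, 0.0055 and 0.038. Hyou1, whose product exchanges nucleotides on BiP, differed by -0.05 on one set and 0.21 on another that was Present on 1 of 3 SHR and 3 of 3 WKY arrays. The BiP cochaperones Dnajb9, Dnajb11 and Dnajc3 differed by -0.044, 0.0046 and 0.11. Creld2, an ER stress-inducible gene, differed by -0.062, and Manf, a secreted neurotrophic ER protein, by 0.015.

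Sdf2l1, an ER protein that works with Dnajb11, had the largest difference of this group. Its signal was 9.76, 9.55 and 9.90 in SHR, against 9.92, 10.06 and 9.89 in WKY. SHR animals 1 and 2 lay below the WKY animals and SHR animal 3 lay just above WKY animal 3. The difference was -0.22 ± 0.11 (SE; limma, adjusted p = 0.567). Its adjusted p ranged from 0.347 to 0.832 over all alternatives.

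The genes that carry an ERSE or ERSE-II held no difference that passed the test. The 10 genes shown above had 13 kept probe sets, 7 with a difference above 0 and 6 below. Their differences ran from -0.062 to 0.21 with a median of 0.0046. None had an unadjusted p under 0.05, and in none did the strains fail to overlap, beside 9.52% and 15.0% of all kept sets. With 13 sets, a count of 0 is not set apart from these shares. The smallest unadjusted p among them was 0.332.

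**Figure D4:**
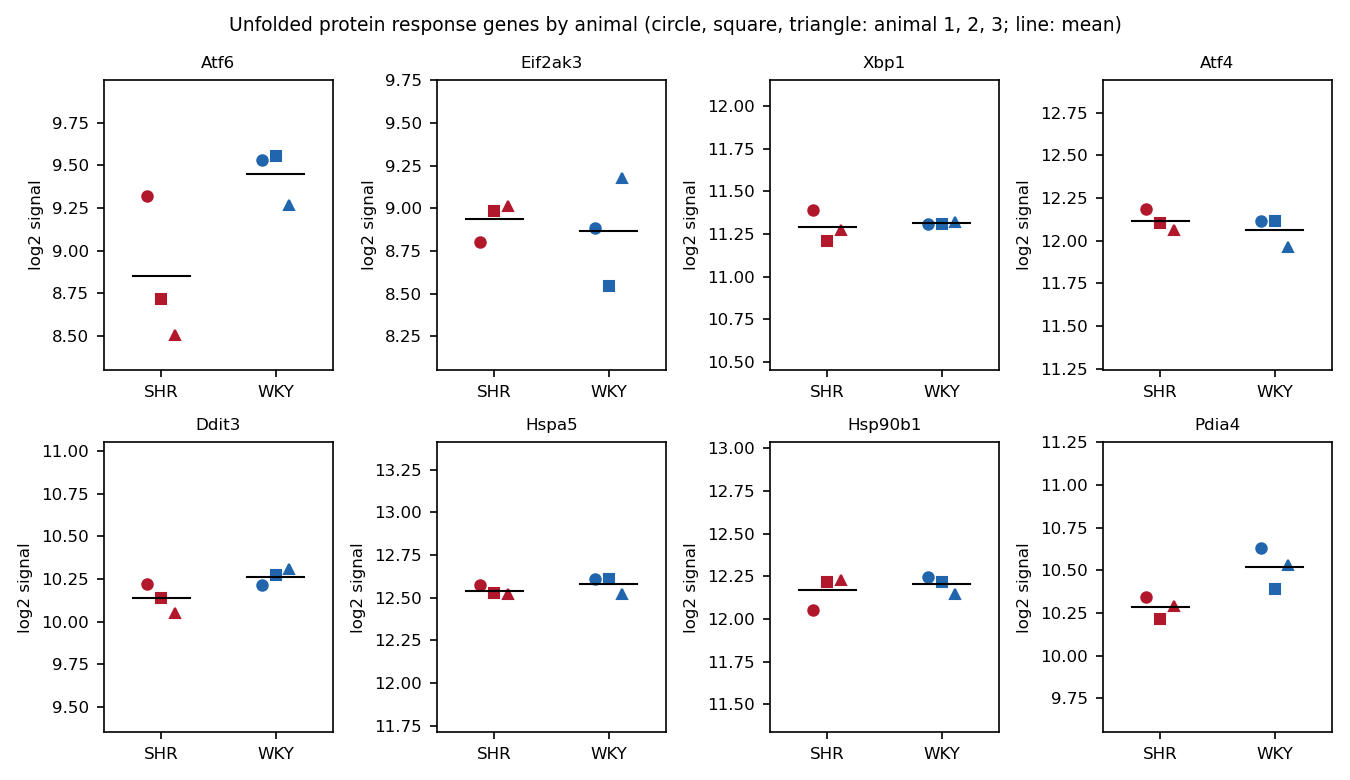
Log2 signal of 8 unfolded protein response genes in each animal, SHR on the left and WKY on the right of each panel, with the strain mean as a line; all panels span the same log2 range. Atf6 and Pdia4 are lower in most or all SHR animals, while Xbp1, Atf4, Hspa5 and Hsp90b1 overlap.

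Pdia4, a protein disulfide isomerase (ERp72) that forms disulfide bonds in secreted proteins, was the member of the response whose strains did not overlap. Its signal was 10.34, 10.22 and 10.29 in SHR, against 10.63, 10.39 and 10.53 in WKY. The highest SHR animal lay just below the lowest WKY animal. The difference was -0.23 ± 0.085 (SE), or 1.18-fold lower in SHR, with limma adjusted p = 0.379. It was not called under any alternative run, where adjusted p ranged from 0.283 to 0.752. The set is aligned to bases 142140797 to 142159845 of chromosome 4 (Rnor5.0, minus strand).

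Of the other isomerases, Pdia3, which works with the lectin chaperones, differed by -0.017 and 0.060 on its 2 sets, and Pdia6 by -0.015. Of the genes of ER-associated degradation, which returns misfolded proteins to the proteasome, Herpud1 differed by 0.090 and Sel1l by -0.12 ± 0.21 (SE). SHR animal 1 had the lowest Sel1l signal, 7.79, and the other SHR animals had 8.65 and 8.64, against 8.48, 8.44 and 8.51 in WKY. Edem1, a lectin of the same pathway, differed by 0.29 ± 0.33 (SE) and was Present on 2 SHR arrays and 1 WKY array. Syvn1, the ubiquitin ligase of this pathway, shared its probe set with other symbols and was not analysed here.

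Genes of the large cytosolic chaperone families also had similar signals in the strains. Hsp90ab1, the constitutive Hsp90, had 12.87, 12.78 and 12.74 in SHR, against 12.79, 12.69 and 12.67 in WKY on one set. On its other set it had 13.32, 13.29 and 13.34 in SHR, against 13.35, 13.25 and 13.34 in WKY. The strains overlapped on both sets, with differences of 0.081 ± 0.057 and -0.00031 ± 0.047 (SE). The inducible Hsp90aa1 and the constitutive Hsp70 gene Hspa8 lay on probe sets with several symbols and were not analysed here.

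Genes for the partners of Hsp90 did not pass the test. Stip1, which links Hsp70 to Hsp90, differed by -0.15 ± 0.089 (SE), with 11.36, 11.69 and 11.69 in SHR, against 11.76, 11.75 and 11.68 in WKY. SHR animal 1 was low and the other SHR animals lay at the low edge of WKY. Fkbp4, an immunophilin of steroid receptor complexes, differed by -0.024. The 2 sets of St13, an Hsp70 cochaperone gene, differed by 0.021 and -0.015. They are aligned to chromosomes 7 and 6 in the deposited table, so it is uncertain whether both read the same gene.

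Genes of the Hsp70 and Hsp110 families had no set with an unadjusted p under 0.05, beside 9.52% of all kept sets. Hspa2, a Hsp70 gene, differed by 0.085 and 0.026 on its 2 sets, and Hspa4, a Hsp110-type exchange factor, by 0.0078. Hsph1, the inducible Hsp110 gene, differed by -0.085 and -0.014. Hspa4l differed by -0.10 ± 0.12 (SE), and by -0.26 without WKY animal 3, whose signal of 11.81 was below the 12.36 and 12.19 of the other WKY animals (limma, adjusted p = 0.318 without it).

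Hsp40 proteins deliver substrates to Hsp70. Dnajb1, the heat-inducible Hsp40 gene, had 9.28, 9.76 and 9.56 in SHR, against 9.55, 9.42 and 9.66 in WKY on one set. On the other it had 10.50, 10.47 and 10.39 in SHR, against 10.47, 10.54 and 10.47 in WKY. The strains overlapped on both, with differences of -0.014 ± 0.13 and -0.039 ± 0.073 (SE). Dnaja1 differed by 0.073 and 0.018 on its 2 sets. Dnajb5 differed by 0.27 ± 0.21 (SE) on the set that passed the filter, and its 2 other sets were called Absent on all arrays.

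Hsf1 itself, the regulator of these genes, had 8.67, 8.56 and 8.48 in SHR, against 8.81, 8.60 and 8.44 in WKY. The SHR values lay inside the WKY range and the difference was -0.050 ± 0.13 (SE). The mitochondrial chaperonin genes Hspd1 (Hsp60) and Hspe1 (Hsp10), which share a promoter region, differed by -0.0034 ± 0.051 and -0.076 ± 0.053 (SE). The 4 measured genes with a heat shock element in the promoter window (Dnaja1, Hspd1, Hspe1 and Hsph1) had 6 kept sets. Their differences ran from -0.085 to 0.073 with a median of -0.0087. None had an unadjusted p under 0.05, beside 9.52% of all kept sets, and 6 sets are too few to differ from that share.

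Small heat shock proteins hold unfolded proteins in solution, and the signals of several of their genes were spread widely among the SHR animals. Hspb1 (Hsp27) had 11.61, 10.38 and 11.23 in SHR, against 10.97, 10.54 and 10.87 in WKY. SHR animals 1 and 3 lay above all WKY animals and SHR animal 2 lay below all of them. The difference was 0.28 ± 0.25 (SE; limma, adjusted p = 0.797), and the SHR values spread over 1.23 against 0.43 in WKY. Hspb8 had 9.15, 8.18 and 9.12 in SHR, against 8.77, 8.66 and 8.63 in WKY on one set. It had 10.89, 9.92 and 10.42 in SHR, against 10.30, 10.08 and 10.05 in WKY on the other. Both Hspb8 sets had the order seen for Hspb1, with SHR animal 2 lowest of all 6 and SHR animals 1 and 3 highest. The differences were 0.13 ± 0.23 and 0.27 ± 0.19 (SE). Bag3, whose product joins Hspb8 to Hsp70 in selective autophagy, had 11.14, 10.63 and 10.96 in SHR, against 10.92, 10.79 and 10.64 in WKY, a difference of 0.13 ± 0.12 (SE).

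Cryab, which encodes alpha B-crystallin, a small heat shock protein abundant in glia, had 12.22, 11.94 and 12.32 in SHR, against 12.20, 12.12 and 12.06 in WKY. SHR animal 2 was again the lowest of the 6, and the difference was 0.033 ± 0.091 (SE). Hspb6 (Hsp20) had 9.59, 9.59 and 9.48 in SHR, against 9.47, 9.44 and 9.41 in WKY. Every SHR animal lay above every WKY animal, by a narrow margin between the nearest of them, and the difference was 0.11 ± 0.089 (SE; limma, adjusted p = 0.769). All 5 small heat shock protein sets, of 4 genes, had a difference above 0, beside 10458 of all 20790 kept sets. None had an unadjusted p under 0.05, beside 9.52% of all kept sets. The shared sign rested on single animals, since over left-out animals one Hspb8 set fell to -0.035 and Cryab to -0.047.

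The size of the Hspb1, Hspb8 and Bag3 differences depended on SHR animals 1 and 2. The median deviation of the 5 small heat shock protein sets from their mean over 6 animals was 0.40, -0.36 and 0.18 in SHR animals 1, 2 and 3, against 0.026, -0.090 and -0.083 in WKY animals 1, 2 and 3. The same median over all 54 members lay between -0.0061 and 0.023 in every animal. Without SHR animal 2, the differences were 0.62 for Hspb1, 0.45 and 0.51 for Hspb8 and 0.27 for Bag3. Limma's adjusted p was then 0.126, 0.204, 0.207 and 0.398, so none was called. Without SHR animal 1, the differences were 0.0099 for Hspb1, -0.035 and 0.027 for Hspb8 and 0.011 for Bag3. Hspb6 stayed between 0.092 and 0.15 whichever animal was left out. SHR animal 2 also stood apart in some cell type markers. Gfap, an astrocyte filament gene, had 12.65, 11.26 and 12.50 in SHR, against 12.75, 12.60 and 12.45 in WKY, and Aldh1l1, another astrocyte gene, had 9.96, 9.25 and 9.72 in SHR, against 9.81, 9.73 and 9.46 in WKY. The other astrocyte genes were mixed. SHR animal 2 was the highest of the 6 on one Gja1 set (6.96) and the lowest SHR animal on the other (13.14). It was the highest SHR animal on one Slc1a2 set (6.84) and the lowest on the other (7.58). The sets at 6.96 and 6.84 were not detected throughout. The Gja1 one was Present on 3 SHR arrays and 1 WKY array, the Slc1a2 one on 2 SHR and 3 WKY arrays. On the Aqp4 sets SHR animal 2 was the lowest in SHR at 7.70 and 13.12 and the middle one at 9.42. On those of Slc1a3 it was the lowest at 12.48 and the middle one at 9.97 and 7.47. Summed over the 6 astrocyte marker genes, linear signals were 29216 to 37980 in SHR and 32850 to 34968 in WKY. Ttr, a gene of the choroid plexus, had 6.51, 9.38 and 6.83 in SHR, against 6.59, 6.62 and 6.60 in WKY. The other detected choroid plexus genes, Folr1 and Kcnj13, had 5.87 and 7.09 in SHR animal 2, and the sum of the 3 was 264 to 863 in SHR and 275 to 314 in WKY. The part of these markers in the small heat shock protein values was not tested. This grouping of heat shock genes was noticed after their values were seen and is given as a description. The SHR range was wider than the WKY range for 32 of the 54 members and for 59.2% of all kept probe sets.

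**Figure D5:**
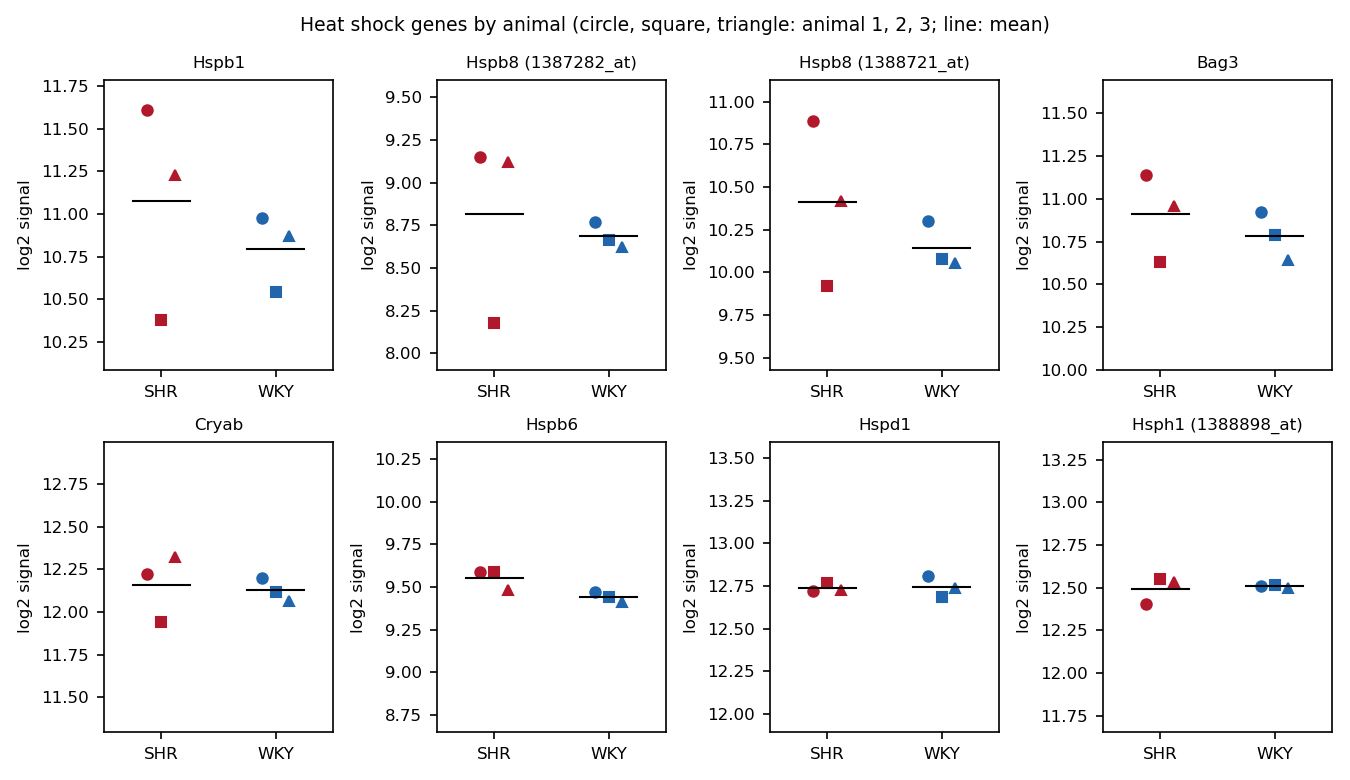
Log2 signal of 8 probe sets of heat shock genes in each animal, SHR on the left and WKY on the right of each panel, with the strain mean as a line; all panels span the same log2 range. For Hspb1, both Hspb8 sets and Bag3, SHR animal 1 is the highest and SHR animal 2 the lowest of the 6.

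Where a gene had several kept probe sets, their signs were often mixed. Of 10 such genes, 5 had differences of the same sign on all sets and 5 of mixed sign. The mixed ones were Canx, Hsp90ab1, Hyou1, Pdia3 and St13, and no set of theirs had an unadjusted p under 0.05.

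Other genes of the same pathways, taken from 3 lists of 113 genes that exclude the members, held 1 called gene. Of these genes 102 had a probe set, and 133 sets of 96 genes were tested. Of the 133 sets 1 was called, beside 0.924% of all kept sets, and this count is not set apart from that share. Ddit4, which encodes REDD1, an inhibitor of mTOR signalling that is induced by ATF4, glucocorticoids and other stresses, had 10.94, 10.55 and 10.67 in SHR, against 10.21, 10.16 and 10.03 in WKY. All SHR animals lay above all WKY animals. It was higher in SHR by 0.59 ± 0.10 (SE), or 1.5-fold, with limma adjusted p = 0.032. It stayed called in 12 of 17 alternatives, and the call was lost without a variance trend (adjusted p = 0.195), without SHR animal 3 (0.0631) and without WKY animal 1, 2 or 3 (0.104, 0.141 and 0.158). Atf4 itself and its targets Ddit3 and Atf5 were not called, as given above. The part of ATF4 or of any other inducer in the Ddit4 difference was not tested.

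Several other genes of the pathways had differences larger than those of any member except Atf6, without being called. Over the 133 sets, 20 had an unadjusted p under 0.05 (15.0%, beside 9.52% of all kept sets), 8 higher and 12 lower in SHR. The lists were chosen with earlier results of these data known. This share, those of the single lists below and the Ddit4 call are therefore a description. Ero1l, the oxidase that recharges disulfide isomerases, had 10.71, 10.20 and 10.48 in SHR, against 10.90, 10.79 and 10.92 in WKY. The strains did not overlap, with a difference of -0.40 ± 0.12 (SE; limma, adjusted p = 0.216). Its second set did not overlap either and differed by -0.53 ± 0.24 (adjusted p = 0.52). Without SHR animal 1 the first set was called (-0.53, adjusted p = 0.0255). Eif2ak2, the double-stranded RNA sensor PKR, which phosphorylates the same translation factor as PERK and is also known as an interferon-induced gene, differed by -0.44 ± 0.14 (SE; adjusted p = 0.249).

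Of 25 sets of other ER-associated degradation genes, 3 had an unadjusted p under 0.05 (12.0%, beside 9.52% of all kept sets). Ube2j1, a ubiquitin-conjugating enzyme of the ER membrane, had 8.18, 8.51 and 8.77 in SHR, against 9.03, 9.22 and 8.87 in WKY, a difference of -0.55 ± 0.16 (SE; limma, adjusted p = 0.225). Os9, a lectin that delivers misfolded glycoproteins to the Sel1l complex, had 7.50, 8.25 and 8.22 in SHR, against 8.56, 8.66 and 8.73 in WKY. Its difference was -0.66 ± 0.20 (adjusted p = 0.238), and SHR animal 1 was lowest, as it was for Sel1l. Edem3, which trims mannose from misfolded glycoproteins, was measured in the other direction, at 0.22 ± 0.069 (SE; adjusted p = 0.263).

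Of 58 sets of other cytosolic and mitochondrial chaperones, 11 had an unadjusted p under 0.05 (19.0%, beside the same 9.52%), 5 higher and 6 lower in SHR, and none was called. Dnaja3, a mitochondrial Hsp40 gene, had 8.95, 9.02 and 9.15 in SHR, against 9.40, 9.49 and 9.46 in WKY. The strains did not overlap and the difference was -0.41 ± 0.10 (SE; limma, adjusted p = 0.122). Trap1, the mitochondrial Hsp90 gene, differed by -0.30 ± 0.084 (SE; adjusted p = 0.205), also without overlap. Chordc1, an Hsp90 cochaperone gene that HSF1 is known to induce, had 11.21, 11.15 and 11.19 in SHR, against 10.95, 10.92 and 10.93 in WKY. The values spread over 0.054 in SHR and 0.031 in WKY, and the difference was 0.25 ± 0.062 (SE; adjusted p = 0.13).

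Of the markers of position and cell type, 1 probe set was called, beside 0.924% of all kept sets. Of the summed lists, 2 did not overlap between the strains. The neuron markers of the region Th, Dbh, Pnmt, Ddc and Slc17a6 were detected, while Slc6a2, the noradrenaline transporter gene, was called Absent on all arrays. The 3 detected of 5 hindbrain Hox genes (Hoxa5, Hoxb5 and Hoxd3) each had a difference below 0 with an unadjusted p under 0.05. Such a p toward lower values in SHR was reached by 4.7% of all kept sets, and none of these genes was called. Their summed linear signal was 344 to 884 in SHR and 950 to 1342 in WKY. Summed oligodendrocyte markers were 118937 to 129949 in SHR and 134475 to 143482 in WKY. A difference below 0 was seen for 12 of their 13 sets, beside 10332 of all 20790 kept sets. Of the Mobp sets, 1 was called, at -0.99 (limma, adjusted p = 0.000111). The other Mobp sets differed by -0.17 and -0.12 and were not called (limma, adjusted p = 0.271 and 0.734). Of the 3 kept blood markers, the red cell genes Alas2 and Hbb differed by -0.70 and -0.38, each with an unadjusted limma p under 0.05. S100a9, a neutrophil gene, differed by 1.70 (limma, adjusted p = 0.0628). It was Present on 3 SHR arrays and 0 WKY arrays and so passed the filter through SHR alone. Its difference and p-value rest on undetected WKY signals. S100a8, another neutrophil gene, was Absent on all arrays. Summed neuron markers were 73107 to 76531 in SHR and 70249 to 79670 in WKY, and those of astrocytes, microglia and vessels also overlapped. The forebrain genes Emx1 and Tbr1 were Absent on all arrays. The part of these differences in the values of Atf6, Pdia4, the small heat shock protein genes and Ddit4 was not tested.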

How the data were processed

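RNA of 6 animals was hybridised to 1 array each, grouped by strain as titled. The authors deposited log2 signals with detection calls and a table of linear intensities. MAS5 is named in the submitters' processing notes, with no version given in the sources used here. The deposited log2 values equalled the log2 of the intensities to within 8.2e-06. For this comparison, intensities under 1, which numbered 47 to 69 on each array, were raised to 1. Arrays had been scaled to a common trimmed mean of 500.14. They were used without further normalization. Probe sets called Present on at least 3 of 6 arrays were kept. Strain was tested with limma 3.58.1 under R 4.3.3, using lmFit and a trended eBayes, with Benjamini-Hochberg adjustment over the 20790 kept sets and a threshold of 0.05. These steps were tested on simulated data. The number of animals limits the precision, and nothing says whether they were littermates.

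Members given by animal had an unadjusted p under 0.05, or strains that did not overlap with a difference of at least 0.3, or a central role. Hspb8, Bag3, Hspb6, Sdf2l1, Stip1, Sel1l and Hspa4l were added after their values were seen. Of each other list, the 3 genes of smallest p and any called were named. Members and lists were chosen with earlier results of these data known. Gene symbols and coordinates are the deposited ones (Rnor5.0), and promoters are RefSeq's (GRCr8). Alternatives were other normalizations, pseudocounts of 16 and 64, filters, variance models, 1 probe set a gene, the series matrix values, a replicate block and each animal left out. Ern1 and Dnajb4 had no matching row, and Syvn1, Hspa8 and Hsp90aa1 only shared ones. Replicate numbers were not used as pairs in the main test.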

Additional observations from a re-analysis of the deposited data

How the results depend on the processing

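The absence of a called member held in 16 of 17 alternatives, and Atf6 without SHR animal 1 was the exception. Over left-out animals the calls numbered 0 to 1 among members, 0 to 2 among the other folding genes and 78 to 205 over all probe sets (78 to 81 without any 1 WKY animal). Against 192 calls over all probe sets, 94 were made with 1 probe set a gene and 63 without a variance trend. Without that trend the other folding genes held 0 calls (limma) and 1 member had an unadjusted p under 0.05, while leaving out animals gave 1 to 5. The median difference of the unfolded protein response sets was -0.040 under median centring and -0.026 to 0.0054 over left-out animals, and that of the heat shock sets -0.0029 to 0.032. Median centring gave 100 calls higher and 98 lower, against 109 and 83.

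Of 31 single-gene results, 8 changed sign in 13 instances, none larger than 0.11. Over left-out animals one Hsp90ab1 set ran from -0.032 to 0.018 and was 0.031 after quantile normalization. One Dnajb1 set ran from -0.13 to 0.11, Hsp90b1 from -0.067 to 0.022, one Hspb8 set from -0.035 to 0.45, Xbp1 from -0.073 to 0.018, Cryab from -0.047 to 0.14, Hsf1 from -0.14 to 0.047 and Eif2ak3 from -0.097 to 0.22. The cause was not tested. With replicate number as a block, 196 probe sets and 0 members were called. Same-numbered animals deviated together at correlations of -0.010 to 0.077 over all kept sets. Such correlations cannot exclude that same-numbered animals were handled together, and the labels do not say. Low signals and 3 animals a strain limit what could be seen, and sequence differences under the probes were not checked.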

Other observations

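The probe sets of the mitochondrial chaperone genes Dnaja3 and Trap1, both lower in SHR without overlap, lie near each other on chromosome 10 (9825835 to 9833492 and 10506627 to 10512198, Rnor5.0). SHR animal 1 had the highest signal of its strain for 27 of the 54 member sets and SHR animals 2 and 3 for 13 and 14 (50%, 24.1% and 25.9%, beside 36.0%, 31.7% and 32.3% of all kept sets). In WKY, animal 1 had the highest for 27, and animals 2 and 3 for 14 and 13 (50%, 25.9% and 24.1%, beside 33.0%, 32.7% and 34.3%). The Absent Atf6 set read 6.21, 6.20 and 6.26 in SHR, against 5.82, 5.84 and 6.16 in WKY, so it was higher in every SHR animal while the tested set was lower on average. As it was Absent on all arrays, its signal cannot be read as a level of the transcript.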
